A study of Homo sapiens with 4 samples.

Results

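The 37 genes of the human mitochondrial genome, taken as every gene of the deposited count table whose symbol starts with MT-, were followed from control to UBXN1-knockdown hepatocellular carcinoma cells. They are 13 mRNAs, 2 rRNAs and 22 tRNAs among 61541 gene IDs. The cells were MHCC97H, an established human hepatocellular carcinoma line. Of the 4 RNA-seq libraries, 2 came from control cells (labelled shCon, genotype control) and 2 from cells in which short hairpin RNA lowered UBXN1, a gene for an adaptor protein with ubiquitin-binding domains (labelled shUBXN1, genotype UBXN1 knockdown). No drug, time point or further allele is given for either group. The study's methods name a hairpin against RFP, a fluorescent protein that the cells do not make, as its control. Which UBXN1 hairpin was used, and whether the libraries of a group came from separate cultures, is not given in the sources used here, so p-values measure only the spread between these libraries.

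Mitochondrial DNA is a small circular genome kept in many copies per cell. Both strands are transcribed by a dedicated polymerase, POLRMT, into long precursors that are cut, mostly at the tRNAs that punctuate them, into single mRNAs, rRNAs and tRNAs. The mRNAs encode core subunits of respiratory complexes I, III and IV and of ATP synthase (complex V), while the other subunits of these complexes and all the proteins that copy, cut, modify and degrade the RNA are encoded in the nucleus. More mitochondrial genomes per cell and more RNA per genome cannot be told apart in RNA from whole cells.

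The lengths given in the count table equalled those of GENCODE release 44 for all 37 genes, so positions below are those of that annotation on chrM of GRCh38, which has 16569 bases. The rRNA genes MT-RNR1 (chrM:648-1601, plus strand) and MT-RNR2 (chrM:1671-3229, plus strand) are parted only by the gene of the valine tRNA, MT-TV. The first sequence shows that boundary, with MT-TV in capitals, because the rRNAs on its sides moved in opposite directions. The next ones show where a pair of mRNA reading frames share bases (in capitals), because reads there cannot be given to 1 gene. The last is the gene of the alanine tRNA, MT-TA, with its anticodon in capitals, because it was the tRNA with the most counts. All are read 5′ to 3′ on the strand named.
MT-RNR1/MT-TV/MT-RNR2, chrM:1582-1690, plus strand: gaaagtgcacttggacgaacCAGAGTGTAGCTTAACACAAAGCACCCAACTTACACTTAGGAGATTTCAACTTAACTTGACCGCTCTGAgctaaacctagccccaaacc
MT-ATP8/MT-ATP6, chrM:8507-8592, plus strand: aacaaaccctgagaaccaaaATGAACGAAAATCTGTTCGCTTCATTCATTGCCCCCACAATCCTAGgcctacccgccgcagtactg
MT-ND4L/MT-ND4, chrM:10740-10786, plus strand: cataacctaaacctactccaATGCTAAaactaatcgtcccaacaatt
MT-TA, chrM:5587-5655, minus strand: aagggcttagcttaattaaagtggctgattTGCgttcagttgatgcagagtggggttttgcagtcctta
The overlap of MT-ATP8 with MT-ATP6 is 46 bases long and that of MT-ND4L with MT-ND4 is 7 bases, both on 1 strand.

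The libraries held 23373700 to 27380508 expected counts (estimated reads per gene, which need not be whole). UBXN1 (chr11:62676498-62679117, minus strand) was at 67.1 and 77.3 CPM (a gene's counts per 1e6 counts of its library, scaled with edgeR's TMM factors) in the shCon libraries and at 16.8 and 18.5 in the shUBXN1 libraries, a log2 fold change of -2.03 (SE 0.10, adjusted p = 9.98e-10). That test, used for all single genes below, is the quasi-likelihood test of edgeR, adjusted by Benjamini-Hochberg over all 16863 genes tested, and a gene was called at an adjusted p under 0.05. Of 12 hepatocyte and hepatocellular carcinoma markers, APOA1, APOA2 and GPC3 stayed under 1 CPM in every library, with GPC3 at 0, and 4 (TF, HNF4A, KRT8, KRT18) exceeded 10 CPM in every library. Of 10 markers of blood, endothelial and stromal cells, 6 stayed under 1 CPM, with CD3E at 0, and CD68 and PECAM1 exceeded 10 CPM. The summed CPM of the first list, mostly KRT8 and KRT18, was 4454 and 4614 in shCon against 3469 and 4058 in shUBXN1. Of its 10 members tested, 2 were called higher and 6 lower (median log2 fold change -0.50). For comparison, 28.0% of all genes tested were called higher and 28.2% lower, and no share is read from either marker list. The secreted liver proteins did not move together. ALB, TF, FGB and TTR fell by over 2-fold, with ALB at 18.0 and 17.2 CPM against 4.2 and 4.8 CPM. SERPINA1 was called higher (log2 fold change 0.40, edgeR adjusted p = 0.0271), as was the keratin gene KRT18, and AFP and APOA1 were not called. The sum of the second list ranged from 116 to 124 CPM while its members went both ways, with 2 of 6 tested called higher and 3 lower, PECAM1 rising from 33.4 and 33.2 CPM to 43.0 and 41.9 CPM and CD68 falling from 82.4 and 88.3 CPM to 72.9 and 70.5 CPM. The part of these shifts in the mitochondrial results was not tested.

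The 13 mitochondrial mRNAs took a larger share of the library in UBXN1-knockdown cells. Their share was 4.46% and 4.78% of all counts in the shCon libraries and 6.44% and 7.17% in the shUBXN1 libraries. Both knockdown libraries lay above both controls, with means of 4.62% ± 0.224 and 6.81% ± 0.511 (SD, n = 2 libraries each), or 1.47-fold. Counting error was far smaller than this, since the 95% Wilson intervals of these shares were at most 0.0105 percentage points to each side and cover counting error only. The difference of 2.18 percentage points gave p = 0.333 in a two-sided exact permutation test, the smallest p that 2 libraries against 2 allow. The rRNAs together took 0.816% and 0.815% of the counts in shCon and 0.981% and 1.11% in shUBXN1 (1.28-fold, exact permutation p = 0.333). The tRNA genes summed to only 45.4 and 87.5 counts per control library and to 120 and 82.8 per knockdown library, and these groups overlapped. The labels name a kit for mRNA libraries, and which RNA it or the kit of the study's methods kept is not stated, so rRNA and tRNA counts are not read as the cell's whole pool.

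**Figure D1:**
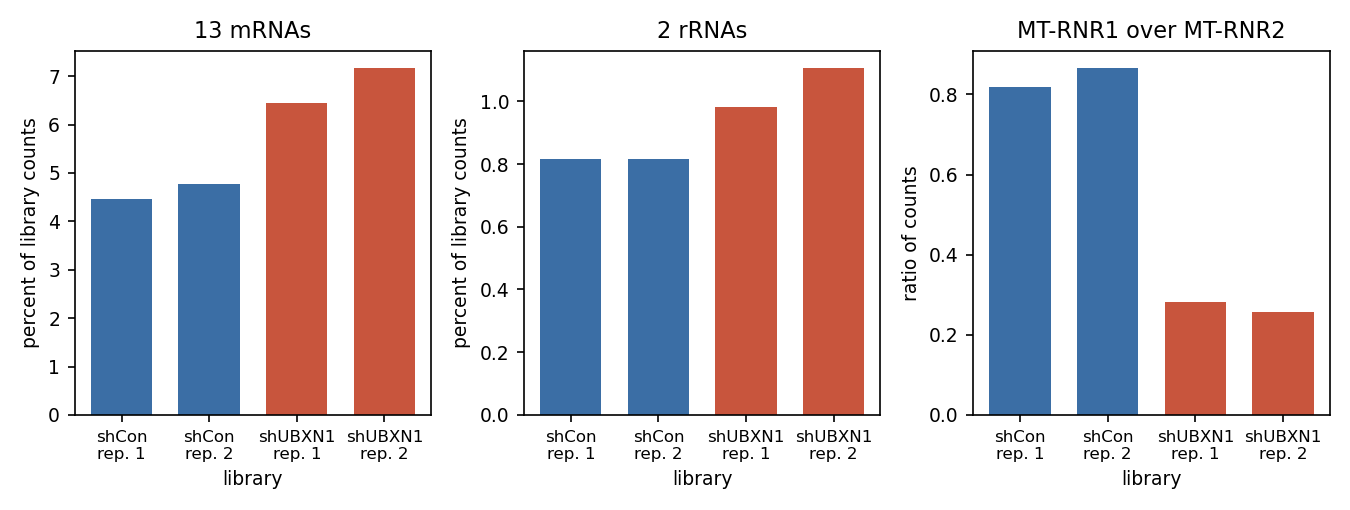
Bars give, for each of the 4 libraries, the percent of library counts on the 13 mitochondrial mRNAs (left) and on the 2 rRNAs (middle), and the ratio of MT-RNR1 to MT-RNR2 counts (right), with the vertical axes starting at 0. Both shares were higher in both shUBXN1 libraries, while the ratio dropped from 0.818 and 0.866 to 0.283 and 0.258.

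The rRNAs moved in opposite directions. MT-RNR1, the RNA of the small mitochondrial ribosomal subunit, was at 3769 and 3915 CPM in shCon and at 2049.6 and 2264 CPM in shUBXN1. Both knockdown libraries were well under both controls, and the log2 fold change was -0.83 (SE 0.09, edgeR adjusted p = 4.2e-06), or 56.1% of the control level. MT-RNR2, the RNA of the large subunit, which also holds the peptide-bond forming centre, was at 4609.6 and 4522 CPM in shCon and at 7244 and 8779 CPM in shUBXN1. Here both knockdown libraries were above both controls, with a log2 fold change of 0.81 (SE 0.11, edgeR adjusted p = 2.54e-05). MT-RNR1 was the only mitochondrial gene tested that fell.

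Within a library, where the scaling cancels, the count of MT-RNR1 was 0.818 and 0.866 times that of MT-RNR2 in shCon and 0.283 and 0.258 times in shUBXN1. Per base of gene length, MT-RNR1 exceeded MT-RNR2 in both controls (ratios of 1.34 and 1.41) and stayed under it in both knockdown libraries (0.462 and 0.421). The mean log2 ratio differed by -1.64 between the groups (SDs of 0.06 and 0.09, n = 2 each, two-sided exact permutation p = 0.333, the smallest possible). Leaving out any of the libraries moved this difference only between -1.71 and -1.57.

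All 13 mRNAs had a positive log2 fold change, from 0.16 to 0.83, and 9 of them were called higher and 0 lower. Their median was 0.48, against 0.02 over all genes tested. With the rRNAs and MT-TA, the only tRNA with enough counts, 16 of the 37 genes entered the test, of which 10 were called higher, 1 lower and 5 neither; 21 tRNAs had too few counts. Over all genes tested, 28.0% were called higher and 28.2% lower, so a call in either direction was common in this comparison. In 11 of the 13 mRNAs the shUBXN1 libraries both lay above the shCon libraries, a pattern that 39.4% of all genes tested showed. None of the 16 reached a 2-fold change with an unadjusted p under 0.05, the pair of thresholds used in the study, which 17.9% of all genes tested reached in either direction. At an unadjusted p under 0.05 and with no bound on the fold, edgeR gave 13 of the 16 as higher and 1 as lower, and of the 13 mRNAs 11 as higher and 0 as lower. The share of all genes passing this looser threshold was not counted. It cannot be under the 28.0% higher and 28.2% lower already called, so these counts are not read as particular to the mitochondrial genes. DESeq2 called 12 mitochondrial genes higher and 1 lower, and over all 16863 genes tested 3851 higher and 4109 lower. Without shCon replicate 1 fewer mitochondrial genes were called higher, as were fewer of all genes tested. The median log2 fold change of the 13 mRNAs was then 0.42.

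**Figure D2:**
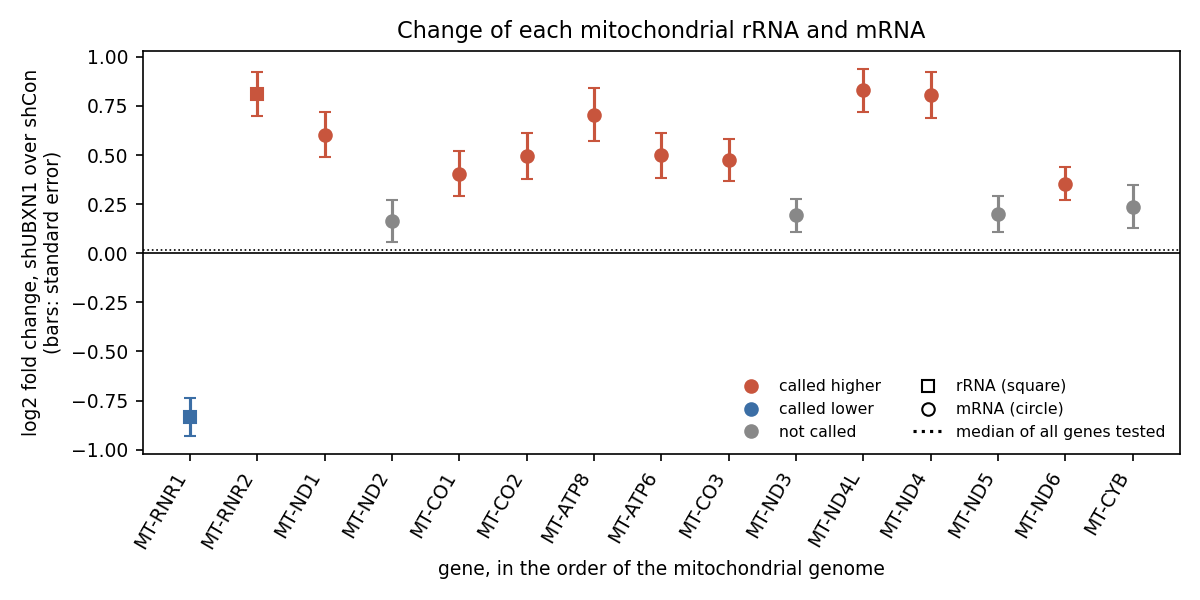
Log2 fold change (shUBXN1 over shCon) of the 2 rRNAs (squares) and 13 mRNAs (circles) in genome order, with bars of 1 standard error, coloured by call, and a dotted line at the median of all genes tested (0.02). Every mRNA sits above that line, MT-ND4L and MT-ND4 sit highest at 0.83 and 0.81, and MT-RNR1 alone sits below 0, at -0.83.

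Of the 7 mRNAs for complex I, which takes electrons from NADH and pumps protons, 4 rose (MT-ND4L, MT-ND4, MT-ND1 and MT-ND6) and 3 were not called (median log2 fold change 0.35). MT-ND4 (chrM:10760-12137, plus strand), which encodes one of the proton-pumping membrane subunits, was at 5574 and 6221 CPM in shCon and at 9345.5 and 11282 CPM in shUBXN1. The groups were far apart, and the log2 fold change was 0.81 (SE 0.12, edgeR adjusted p = 4.33e-05). MT-ND4L (chrM:10470-10766, plus strand), carried on the same mature RNA, was at 855 and 954 CPM in shCon and at 1419.6 and 1794 CPM in shUBXN1, a log2 fold change of 0.83 (SE 0.11, edgeR adjusted p = 1.63e-05). The pair kept step: per base, MT-ND4L was 0.712 times MT-ND4 in both shCon libraries and 0.705 and 0.738 times in the shUBXN1 libraries, with the groups overlapping.

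MT-ND1 (chrM:3307-4262, plus strand), a subunit that helps form the quinone site of complex I, was at 1869.9 and 2090.5 CPM in shCon and at 2645 and 3373 CPM in shUBXN1. It was higher in both knockdown libraries (log2 fold change 0.60, SE 0.11, edgeR adjusted p = 0.000441). MT-ND6 (chrM:14149-14673) is the only mRNA gene on the minus strand, and it was at 392 and 427 CPM in shCon and at 491 and 556 CPM in shUBXN1. Its groups did not overlap either (log2 fold change 0.35, SE 0.09, edgeR adjusted p = 0.00271), but the call was lost without shCon replicate 1 (0.29, adjusted p = 0.0538). Because the strand setting of the counting is not given, reads of MT-ND6 and of transcripts from the opposite strand cannot be told apart.

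The other complex I mRNAs encode further membrane subunits and were not called. MT-ND2 (chrM:4470-5511, plus strand) was at 2375 and 2579 CPM in shCon and at 2489.5 and 3064 CPM in shUBXN1, with overlapping groups (log2 fold change 0.16, SE 0.11, edgeR adjusted p = 0.208). Without shUBXN1 replicate 2 its log2 fold change was -0.007, the only turn of direction among the mitochondrial genes in any setting run, and it was called with total count scaling (0.25, adjusted p = 0.0234) and without shUBXN1 replicate 1 (0.30, 1.18e-05). MT-ND3 (chrM:10059-10404, plus strand) was at 338 and 369 CPM in shCon and at 379.6 and 429 CPM in shUBXN1 (log2 fold change 0.19, SE 0.08, edgeR adjusted p = 0.0632). MT-ND5 (chrM:12337-14148, plus strand), the longest of the mRNA genes, was at 2697 and 2789.6 CPM in shCon and at 3046 and 3265.5 CPM in shUBXN1 (log2 fold change 0.20, SE 0.09, edgeR adjusted p = 0.0756). For both, the knockdown libraries were above the controls by a small margin, and each was called in 9 of the 15 other settings, DESeq2 among them.

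MT-CYB (chrM:14747-15887, plus strand) encodes cytochrome b, the only subunit of complex III made in mitochondria. It was at 2191 and 2378 CPM in shCon and at 2372 and 3015 CPM in shUBXN1, and the lower knockdown library fell just within the control range. The log2 fold change was 0.24 (SE 0.11, edgeR adjusted p = 0.0848), and it ran from 0.04 without shUBXN1 replicate 2 to 0.40 without shUBXN1 replicate 1, with a call in 6 of the 15 other settings. Per base, MT-ND4 was 2.11 and 2.17 times MT-CYB in shCon and 3.26 and 3.10 times in shUBXN1, so these plus-strand mRNAs drew apart in both knockdown libraries (exact permutation p = 0.333, the smallest possible).

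All 3 mRNAs of complex IV, cytochrome c oxidase, rose. MT-CO1 (chrM:5904-7445, plus strand), which encodes the catalytic subunit and had the most counts of all mitochondrial genes, was at 14837 and 15527 CPM in shCon and at 19239 and 20974 CPM in shUBXN1 (log2 fold change 0.41, SE 0.11, edgeR adjusted p = 0.00723). MT-CO2 (chrM:7586-8269, plus strand), which receives electrons from cytochrome c, was at 6573 and 7195 CPM in shCon and at 8709 and 10681 CPM in shUBXN1 (log2 fold change 0.49, SE 0.12, edgeR adjusted p = 0.00253). MT-CO3 (chrM:9207-9990, plus strand), the remaining core subunit, was at 4942 and 5361 CPM in shCon and at 6658 and 7667 CPM in shUBXN1 (log2 fold change 0.48, SE 0.11, edgeR adjusted p = 0.00168). None of the 3 overlapped between groups. Each lost its call without shCon replicate 1 (adjusted p of 0.153, 0.0583 and 0.0537 in the order given) and without shCon replicate 2 (0.271, 0.0942 and 0.0940), with log2 fold changes of 0.37 to 0.55, and MT-CO1 and MT-CO2 also lost it under limma on log2(CPM + 1) (adjusted p of 0.261 and 0.0674). Without shUBXN1 replicate 2 the log2 fold change of MT-CO2 was 0.33, still called.

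Both mRNAs of complex V rose. MT-ATP6 (chrM:8527-9207, plus strand) encodes the membrane subunit that forms the proton path of ATP synthase, and was at 2831.5 and 3127 CPM in shCon and at 3706 and 4707 CPM in shUBXN1 (log2 fold change 0.50, SE 0.12, edgeR adjusted p = 0.00211). MT-ATP8 (chrM:8366-8572, plus strand), which encodes a small membrane subunit, was at 348 and 422 CPM in shCon and at 515 and 740.03 CPM in shUBXN1 (log2 fold change 0.71, SE 0.14, edgeR adjusted p = 0.000484). Both genes were higher in both knockdown libraries, with the second replicate the highest. Without that library, shUBXN1 replicate 2, the log2 fold change was 0.30 for MT-ATP6 and 0.41 for MT-ATP8, both still called. Per base, MT-ATP8 was 0.404 and 0.444 times MT-ATP6 in shCon and 0.457 and 0.517 times in shUBXN1. With the 46 shared bases and the short length of MT-ATP8, the split of reads between them is uncertain.

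**Figure D3:**
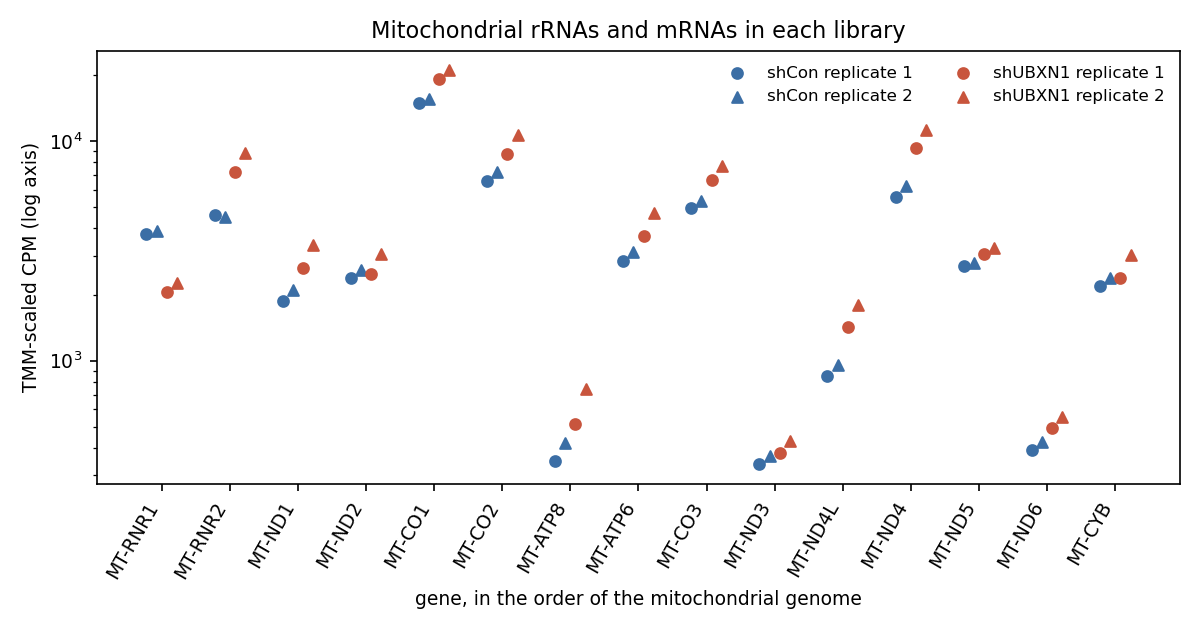
TMM-scaled CPM, on a log axis, of the 2 rRNAs and 13 mRNAs in genome order for each of the 4 libraries (circles replicate 1, triangles replicate 2). The shUBXN1 points lie above the shCon points for 11 mRNAs and for MT-RNR2, meet them for MT-ND2 and MT-CYB, and lie below them for MT-RNR1.

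The make-up of the mitochondrial mRNA counts shifted towards MT-ND4, MT-ND4L and MT-ND1. MT-CO1, MT-ND4 and MT-CO2 together held 58.7% of them in shCon and 60.6% in shUBXN1 (means of 2 libraries). MT-ND4 alone went from 12.2% and 12.6% to 15.3% and 15.8%, the widest shift, and MT-ND4L went from 1.87% and 1.93% to 2.33% and 2.51%. MT-ND1 also had a larger share in both knockdown libraries (4.08% and 4.23% against 4.33% and 4.71%). A smaller share in both was seen for 5 mRNAs, MT-ND2, MT-ND3, MT-ND5, MT-ND6 and MT-CYB, of which MT-ND2 went from 5.18% and 5.22% to 4.08% and 4.28%. The shares of MT-CO1, MT-CO2, MT-CO3, MT-ATP6 and MT-ATP8 overlapped between groups, and that of MT-CO3 had a mean of 10.8% in both. Shares are parts of 1 whole, so a larger share of MT-ND4 by itself makes the others smaller.

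**Figure D4:**
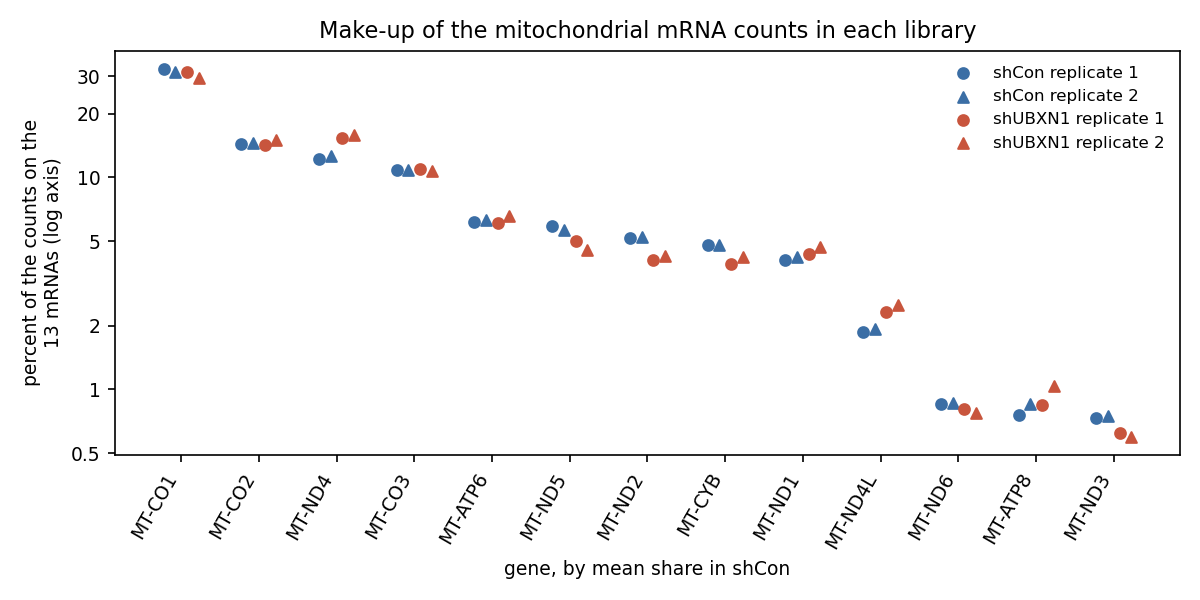
Percent of the counts on the 13 mitochondrial mRNAs taken by each mRNA, on a log axis, in each of the 4 libraries, ordered by the mean share in shCon. MT-ND4 and MT-ND4L were larger in both shUBXN1 libraries, at 15.3% and 15.8% and at 2.33% and 2.51%, while MT-ND2, MT-ND3, MT-ND5, MT-ND6 and MT-CYB were smaller.

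Per length, in TPM (counts scaled by gene length and by the library), these mRNAs ranked among the highest genes of the libraries. Which RNA the kit kept is not stated, so these places are not read as levels in the cell. In shCon, 8 of the 13 ranked within the first 20 genes and all 13 within the first 100, and in shUBXN1 10 ranked within the first 20 and all 13 within the first 50. MT-CO2 (mean 20168 TPM in shCon, 29515 TPM in shUBXN1) and MT-CO1 (19738 and 27211 TPM) led in both groups, followed by MT-CO3 (13168 and 19046 TPM), and in shCon the leading pair overlapped. MT-ND6 was lowest in both, at 1564 and 2079.8 TPM. MT-RNR1 went from the sixth place among the 15 rRNAs and mRNAs in shCon, at 8073 TPM, to the twelfth in shUBXN1, at 4716.5 TPM. In shCon, MT-ATP6 and MT-ND4, MT-ND4L and MT-RNR2, and the run from MT-ND1 through MT-CYB to MT-ATP8 did not differ beyond their spread. In shUBXN1, the neighbours MT-ATP6 and MT-ND4L, and MT-ND4L and MT-RNR2, overlapped. So did each neighbouring pair from MT-ND1 through MT-ATP8, MT-ND2 and MT-CYB to MT-RNR1, though MT-ND1 lay above MT-ND2 and MT-CYB in both libraries. The twelfth place of MT-RNR1 was thus not separate from that of MT-CYB, with 4657 and 4776 TPM against 4506 and 5319 TPM.

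The size of the 13 mRNA changes was set beside plain features of the genes as a description. Across these genes, which share libraries and precursors and are no independent replicates, the log2 fold change had a Pearson r of -0.31 with gene length, -0.01 with GC content, -0.14 with the position of the gene's start and 0.41 with the mean log2 TPM (Spearman rho of -0.33, 0.08, -0.10 and 0.47). Log2 increases of 0.60 or more fell on separate stretches of the genome, MT-RNR2 with MT-ND1, MT-ATP8, and MT-ND4L with MT-ND4 (with MT-TA, at 0.77, not called). MT-RNR1, next to MT-RNR2, went the other way, at -0.83. The size of that change was within the standard errors of that of MT-ND4L (0.83), and under total count scaling the values were -0.75 and 0.91. The mRNA genes that follow MT-ND1 and MT-ND4, namely MT-ND2 and MT-ND5, were not called.

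The tRNA genes were too low to compare, with 1 exception. Of the 22, 11 had 0 counts in every library, which allows up to 3 counts in a library, or 0.110 to 0.128 CPM without TMM scaling. MT-TA held the most, with counts of 40.3 and 48.2 in the controls and of 89.8 and 55.9 after knockdown. The knockdown libraries were the higher ones, by a log2 fold change of 0.77 (SE 0.33) that did not pass the test (edgeR adjusted p = 0.0581), though it passed in 7 of the 15 other settings. No other tRNA gene exceeded 10.98 counts in any library (MT-TS1 in shCon replicate 2). What was counted was assigned almost wholly to minus-strand tRNA genes. The 8 of them summed to 44.4, 87.5, 118 and 76.8 counts (shCon 1 and 2, shUBXN1 1 and 2). The 14 plus-strand tRNA genes summed to 1, 0, 2 and 6 counts, with at most 3 on any of them. The strand setting of the counting is not given. As for MT-ND6, reads of these genes, MT-TA included, and of transcripts from the opposite strand cannot be told apart.

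Copies of mitochondrial DNA in the nuclear genome can take or lend reads. Of 404 such pseudogenes in the table, 5 had enough counts to test and 3 of these were called higher and 0 lower. Among all genes tested 28.0% were called higher and 28.2% lower, and from 5 pseudogenes no share is read. MTCO1P12 (chr1:631074-632616, plus strand), 98.6% identical to MT-CO1, was at 754 and 812 CPM in shCon and at 1217 and 1295 CPM in shUBXN1 (log2 fold change 0.68, SE 0.08, edgeR adjusted p = 9.64e-06). Its counts were 5.08% and 5.23% of those of MT-CO1 in shCon and 6.32% and 6.18% in shUBXN1, so it did not keep a fixed ratio to its mitochondrial counterpart. MTATP6P1 (chr1:633696-634376, plus strand), 98.5% identical to MT-ATP6, was at 294 and 332 CPM in shCon and at 391 and 502 CPM in shUBXN1 (log2 fold change 0.51, SE 0.11, edgeR adjusted p = 0.000903). Its ratio to MT-ATP6 overlapped between the groups, at 10.4% and 10.6% against 10.5% and 10.7%. With the pseudogene counts added, the log2 fold change of MT-CO1 was 0.42 and that of MT-ATP6 0.50. The division of reads between these pairs is uncertain.

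The nuclear genes that make and handle mitochondrial RNA were called in both directions. Of 57 tested, 9 were called higher (15.8%, against 28.0% of all genes tested), 21 lower (36.8%, against 28.2%) and 27 neither, with a median log2 fold change of -0.13. Scaling by total counts gave 13 higher and 17 lower, and limma on log2(TPM + 1) gave 9 and 14, with medians of -0.05 and -0.07. Over all 16863 genes tested, these settings gave 5324 higher and 3969 lower, and 4731 and 3998. Of 6 transcription factors, edgeR called 0 higher and 3 lower, but 1 lower by DESeq2, 1 with total count scaling and 0 by limma on log2(TPM + 1), and at these numbers no share is read from them. TFAM, which packages mitochondrial DNA and opens its promoters, was at 57.4 and 55.6 CPM in shCon and at 44.004 and 49.4 CPM in shUBXN1 (log2 fold change -0.28, SE 0.08, edgeR adjusted p = 0.0102), a call lost without shCon replicate 1 (adjusted p = 0.0684) and by limma on log2(TPM + 1) (0.0689). MTERF2, of the mitochondrial termination factor family, was at 17.7 and 16.6 CPM against 14.0 and 12.2 CPM (log2 fold change -0.39, SE 0.12, edgeR adjusted p = 0.0129), and its call was lost without shCon replicate 1 (0.0923), by DESeq2 (0.0562), with total count scaling (0.0707) and by limma on log2(TPM + 1) (0.111). POLRMT was not called, at a log2 fold change of -0.09. The other call was TEFM, the elongation factor of that polymerase (-0.43, edgeR adjusted p = 0.0299), which lost it without shCon replicate 2 (-0.24, 0.378), by DESeq2 (0.0952), with total count scaling (0.103) and by limma on log2(TPM + 1) (0.0740). POLRMT and TEFM were named after their values were seen.

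Of 12 genes for cutting the precursors and processing the RNA, 3 rose (25.0%) and 5 fell (41.7%), against 1 and 4 by DESeq2 and 4 and 4 with total count scaling. FASTKD1, a mitochondrial RNA-binding protein, rose from 17.3 and 16.1 CPM to 26.2 and 28.6 CPM (log2 fold change 0.71, edgeR adjusted p = 3.94e-05), and PTCD1, another RNA-binding protein, fell from 55.5 and 57.7 CPM to 42.7 and 44.6 CPM (-0.38, edgeR adjusted p = 0.000863). Of 8 genes for stability and decay, 2 rose (25.0%) and 4 fell (50%). Both lists stand beside 28.0% higher and 28.2% lower over all genes tested, and at these numbers no share is read from them. REXO2, an exonuclease that clears short RNA fragments, rose from 34.5 and 36.9 CPM to 68.4 and 75.3 CPM (log2 fold change 1.01, edgeR adjusted p = 1.58e-07). SUPV3L1, the helicase of the mitochondrial RNA degradosome, fell from 38.0 and 38.1 CPM to 22.0 and 23.6 CPM (-0.74, edgeR adjusted p = 7.59e-06). The other 3 that fell, named after their values were seen, were PNPT1, the nuclease that works with that helicase (-0.37), and LRPPRC and SLIRP, which bind and stabilise mitochondrial mRNAs together (-0.52 and -0.63). Of the rest of this list, PDE12 was the other gene that rose (0.42), and MTPAP (-0.09) and GRSF1 (-0.06) were not called.

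Among genes for modification, calls stood beside 28.0% higher and 28.2% lower over all genes tested. Of 16 genes for rRNA modification and ribosome assembly, 2 rose (12.5%) and 5 fell (31.2%). NSUN4, a methyltransferase that acts on the small-subunit rRNA encoded by MT-RNR1, rose from 22.7 and 20.6 CPM to 32.9 and 29.3 CPM (log2 fold change 0.53, edgeR adjusted p = 0.000467), and RCC1L, an assembly factor, fell from 72.6 and 73.5 CPM to 50.8 and 58.0 CPM (-0.43, edgeR adjusted p = 0.000489). Of 15 genes for tRNA modification, 2 rose (13.3%) and 4 fell (26.7%). GTPBP3, which modifies the wobble base of some mitochondrial tRNAs, rose from 22.4 and 22.5 CPM to 41.7 and 42.4 CPM (log2 fold change 0.91, edgeR adjusted p = 7.36e-07), and NSUN2, an RNA methyltransferase, fell from 121 and 119.5 CPM to 78.6 and 81.7 CPM (-0.58, edgeR adjusted p = 8.91e-06).

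The nuclear partners of the mitochondrially encoded subunits were called in both directions, as were genes at large. Of 74 nuclear subunit genes of complexes I, III, IV and V, 16 were called higher (21.6%, against 28.0% of all genes tested), 22 lower (29.7%, against 28.2%) and 36 neither, with a median log2 fold change of -0.08. This split followed the scaling, with 23 higher and 18 lower and a median of 0.004 under total counts, and 22 higher and 19 lower under limma on log2(TPM + 1). The split of all 16863 genes tested moved too, to 5324 higher and 3969 lower under total counts and 4731 and 3998 under limma on log2(TPM + 1). Without shCon replicate 1 the number called higher was 8, and without shCon replicate 2 it was 10 with 11 called lower. Complex by complex, the median of the mitochondrial mRNAs lay above that of the nuclear genes. For complex I it was 0.35 against -0.12 (37 nuclear genes, 6 higher and 10 lower). For complex III, 0.24 (MT-CYB alone, not called) stood against -0.21 (9 nuclear genes, 2 and 4). Complex IV had 0.48 against 0.13 (11 nuclear genes, 5 and 2), and complex V 0.60 against -0.02 (17 nuclear genes, 3 and 6). The difference between the 2 sets of genes was not tested.

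In complex I, NDUFA5 fell from 43.3 and 44.9 CPM to 22.5 and 28.8 CPM (log2 fold change -0.78, edgeR adjusted p = 2.36e-05) and NDUFS7, which carries an iron-sulphur cluster, from 37.4 and 38.3 CPM to 24.4 and 25.5 CPM (-0.60, edgeR adjusted p = 4.38e-05). Complex III held the widest changes in both directions. CYC1, cytochrome c1, fell from 202 and 231 CPM to 91.5 and 105 CPM (log2 fold change -1.14, edgeR adjusted p = 1.04e-07), and UQCR11, a small accessory subunit, rose from 33.9 and 33.4 CPM to 68.4 and 62.2 CPM (0.96, edgeR adjusted p = 2.39e-07). In complex IV, COX6B1 rose from 107 and 123 CPM to 159 and 169 CPM (log2 fold change 0.51, edgeR adjusted p = 0.000102). NDUFA4, now counted with complex IV, rose from 83.8 and 89.3 CPM to 104 and 108 CPM (0.29, edgeR adjusted p = 0.00362), a call lost without either shCon library (adjusted p of 0.0669 and 0.0520). In complex V, ATP5MC2, a gene for the rotor ring subunit, fell from 161 and 175.5 CPM to 116 and 116 CPM (log2 fold change -0.54, edgeR adjusted p = 3.02e-05), and ATP5F1E, a small subunit of the central stalk, rose from 116 and 125 CPM to 162 and 162 CPM (0.42, edgeR adjusted p = 0.000216).

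**Figure D5:**
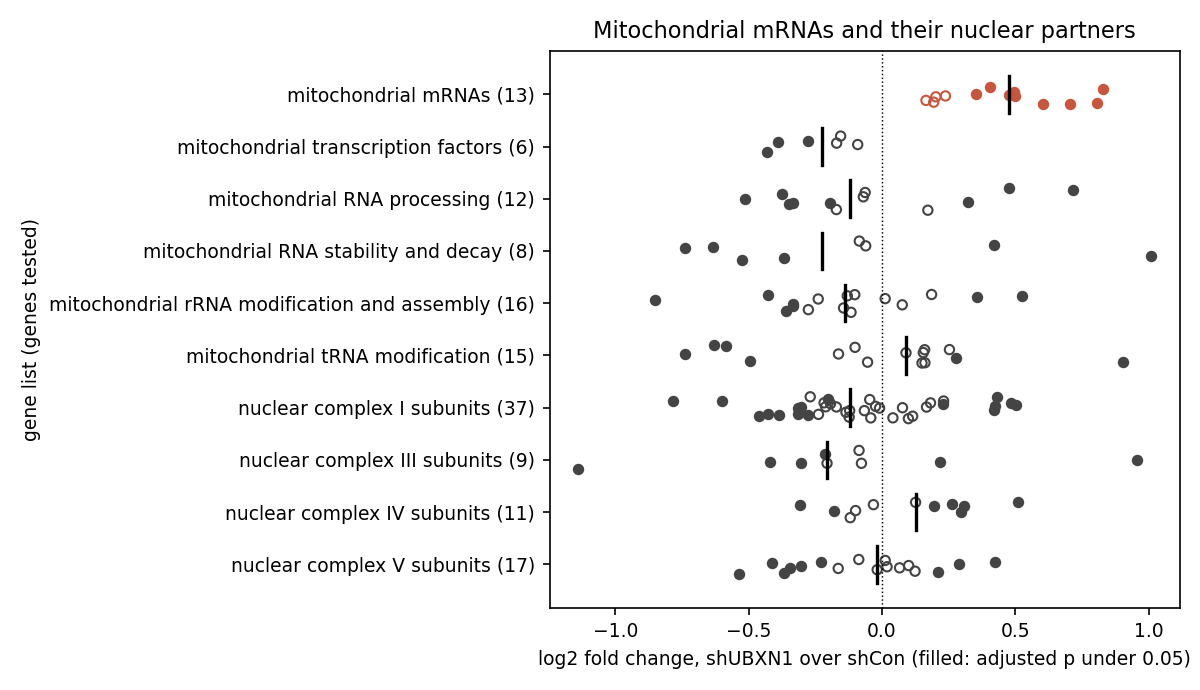
Each point is 1 gene's log2 fold change (shUBXN1 over shCon), filled where the adjusted p was under 0.05, for the 13 mitochondrial mRNAs (top, red) and for 9 lists of nuclear genes, with the number of genes tested in brackets and a black bar at the median. The mRNAs all lie to the right of 0 with a median of 0.48, whereas every nuclear list except the transcription factors holds points on both sides of 0.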

How the data were processed

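RNA of MHCC97H cells was sequenced in 4 libraries, 2 shCon and 2 shUBXN1, grouped by the sample labels. The authors deposited 1 table of unnormalized expected counts with a length for each gene. The study's methods give paired ends aligned to GRCh38 with Hisat2 and a TruSeq kit, whereas the labels name a VAHTS mRNA-seq V2 kit and the submitters' processing notes list HISAT2 2.0.4, StringTie 1.3.0 and GRCh37. The counting tool, annotation release and strand setting are not given in the sources used here. GRCh38 was used for positions because 61369 of 61541 gene IDs (99.7%) and all 37 mitochondrial gene lengths matched GENCODE release 44, from which the sequences were read.

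Counts were rounded, filtered with filterByExpr, scaled with TMM (factors 0.975, 0.967, 1.06 and 1.00) and tested by the quasi-likelihood functions of edgeR 4.0.16 (R 4.3.3) with no block, and p-values were adjusted by Benjamini-Hochberg over 16863 genes. The biological coefficient of variation was 0.0711 on 2 residual degrees of freedom. Standard errors are the log2 fold change over the square root of F. The test was checked on simulated counts in which few genes changed and all genes varied alike. That check does not cover a comparison with as many calls as this one. Replicates differed by more than sampling noise (chi-square per degree of freedom of 3.83 in shCon and 8.42 in shUBXN1). TPM were computed from counts and lengths. Alternatives were DESeq2 1.42.0, limma 3.58.1 (voom, and log2 values with a pseudocount of 1), total count scaling, library sizes of nuclear genes, no filter, at least 10 counts in every library, unrounded counts, pseudogene counts added, a replicate block, each library left out, and the study's thresholds. Named were all mRNAs, rRNAs and tested tRNAs, the 2 nuclear genes of each list with the smallest adjusted p, the 2 most abundant pseudogenes and UBXN1. The genes followed and all lists were chosen with earlier results of these data known.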

Additional observations from a re-analysis of the deposited data

How the results depend on the processing

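Over 15 alternatives for each of the 16 mitochondrial genes tested, 197 of 240 log2 fold changes kept direction and call, 9 lost the call, 33 gained one and 1 turned, MT-ND2 at -0.007 without shUBXN1 replicate 2 (-0.007 to 0.30 over the 4 fits that leave out a library). The number of mitochondrial genes called higher ran from 6 to 14 when 1 library was left out, lowest without shCon replicate 1, and from 9 to 14 under the other tools, scalings and filters, with 1 called lower in each. Over all genes tested, the number called higher under those tools, scalings and filters ran from 3851 by DESeq2 to 5324 with total count scaling. That number was also smaller than in the main fit whenever 1 library was left out. With a 2-fold change and an unadjusted p under 0.05, 0 mitochondrial genes were called higher and 0 lower, 1 and 0 nuclear genes for mitochondrial RNA, and 0 and 1 nuclear subunit genes. Leaving out 1 library gave 7 to 11 genes for mitochondrial RNA higher and 15 to 27 lower, and 8 to 16 nuclear subunit genes higher and 11 to 27 lower. The median of the 13 mRNAs ran from 0.33 to 0.57 without 1 library and from 0.47 to 0.56 otherwise, and total count scaling moved the median of all genes from 0.02 to 0.10. Where 1 library was left out, the lone sample of its group was assumed to vary like the other pair. The cause of these shifts was not tested.

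The labels give replicate numbers only, and same-numbered libraries deviated together with a correlation of 0.133 over 11867 genes, from 2 pairs, so the libraries were not treated as paired. A replicate block gave 13 mitochondrial genes higher and 1 lower, 12 and 23 genes for mitochondrial RNA, 17 and 28 nuclear subunit genes, and 10023 calls over all genes in place of 9478. The block left the difference in mRNA share at 2.18 percentage points, by construction. With 2 libraries a group, no exact permutation test over libraries could pass 0.05, and 21 of the 22 tRNA genes had too few counts to test.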

Other observations

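The second replicate held more mitochondrial mRNA than the first in both groups. All 13 mRNAs were higher in shCon replicate 2 than in shCon replicate 1, with a median ratio of 1.09, and all 13 were higher in shUBXN1 replicate 2 than in shUBXN1 replicate 1, with a median ratio of 1.23. Replicate numbers carry no order, and the sources used here do not say what same-numbered libraries share. Counts on all nuclear pseudogenes of mitochondrial genes amounted to 1.95% and 1.99% of the counts on mitochondrial mRNAs and rRNAs in shCon and to 2.30% and 2.19% in shUBXN1.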
